A study of Rattus norvegicus with 6 samples.

Results

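Prostaglandin genes were examined across 2 cell fractions of the rat renal inner medulla, measured on 6 Affymetrix Rat 230 2.0 arrays. The set held 10 genes for the synthesis, uptake and breakdown of prostaglandins, and its members were all probe sets whose only annotated symbol was one of these genes. That gave 14 of the 31042 probe sets tested, and 10 of the 14217 genes they represent. A probe set is the array's group of short probes for 1 transcript. Of the 10 genes, 4 had 2 probe sets each (Ptgs1, Ptges, Slco2a1 and Hpgd) and the other 6 had 1.

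The IMCD fraction was enriched in inner medullary collecting duct cells by low-speed centrifugation, and the nonIMCD fraction was spun down from the supernatant it left. Each fraction was measured on 3 arrays. All arrays came from male Sprague-Dawley rats given 1 mg furosemide, a loop diuretic, 30 min before death, and both fractions came from tissue dissociated enzymatically (collagenase B and hyaluronidase, 75 min, 37 °C). By the labels IMCD replicate 1 was from animals 6 weeks old, and the remaining 5 arrays were from animals 10 weeks old. There were 7 rats in the study, and since the sources used here do not say how they were divided or pooled, p-values measure only the spread between arrays of a fraction, which may be technical.

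Prostaglandins are made from arachidonic acid, which phospholipases A2 release from membranes. Cyclooxygenases turn it into the intermediate PGH2, and terminal synthases turn PGH2 into PGE2, PGD2 or prostacyclin. The carrier encoded by Slco2a1 takes prostaglandins into cells, where the dehydrogenase encoded by Hpgd begins their breakdown. In the renal medulla PGE2 is the main product, and it is known to oppose the action of vasopressin on water reabsorption by the collecting duct.

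The collecting duct fraction had more RNA for both cyclooxygenases, for the inducible PGE2 synthase Ptges and for the PGD2 synthase Ptgds, and less for the uptake carrier Slco2a1 and the breakdown enzyme Hpgd. By brightest probe set, 4 of the 10 genes were higher in IMCD, 2 were lower and 4 did not pass. Mean intensities of the higher genes were 3.05 to 4.79 times those of nonIMCD, and Slco2a1 was 12.97 times as bright in nonIMCD. Genes passed at an adjusted p under 0.05 (limma, Benjamini-Hochberg over all probe sets). Of this small set 60.0% passed, against 25.8% of all genes (10.0% as higher and 15.7% as lower). The median log2 difference was 0.23 over the 10 genes and -0.09 over all genes. These are mixtures of cells, in which fewer cells of a type and less RNA per cell cannot be told apart.

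The sequences upstream of 4 of the genes that passed are shown, Ptgs1, Ptgs2 and Ptges, which were higher, and Slco2a1, which was lower. Ptgds was also higher and Hpgd also lower, and their windows, which held GC box matches, are not shown. Each is the 250 bases before the RefSeq start on GRCr8, 5′ to 3′ on the gene's strand. Capitals mark matches on either strand to 6 motifs. These were the TATA box spelled TATAAA, the GC box spelled GGGCGG, an E-box spelled CACGTG, the cAMP response element spelled TGACGTCA, the AP-1 motif spelled TGANTCA and the C/EBP motif spelled ATTGCNNAA.
Ptgs1, chr3:39981169-39981418, plus strand: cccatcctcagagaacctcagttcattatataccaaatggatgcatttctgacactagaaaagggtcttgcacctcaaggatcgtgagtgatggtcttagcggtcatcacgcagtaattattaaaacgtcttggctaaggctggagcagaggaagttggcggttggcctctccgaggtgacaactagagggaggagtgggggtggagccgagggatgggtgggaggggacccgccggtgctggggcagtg
Ptgs2, chr13:64713813-64714062, plus strand: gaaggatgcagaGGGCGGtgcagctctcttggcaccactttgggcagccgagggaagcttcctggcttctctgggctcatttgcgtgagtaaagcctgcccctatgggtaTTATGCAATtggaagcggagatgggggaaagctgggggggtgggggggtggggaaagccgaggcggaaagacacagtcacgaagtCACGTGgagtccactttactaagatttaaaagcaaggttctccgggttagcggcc
Ptges, chr3:34586988-34587237, minus strand: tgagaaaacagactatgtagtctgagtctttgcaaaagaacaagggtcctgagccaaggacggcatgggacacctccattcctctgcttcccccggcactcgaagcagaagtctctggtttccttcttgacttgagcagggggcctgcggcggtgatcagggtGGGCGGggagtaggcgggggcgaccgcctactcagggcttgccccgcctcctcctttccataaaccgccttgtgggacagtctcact
Slco2a1, chr8:112467489-112467738, plus strand: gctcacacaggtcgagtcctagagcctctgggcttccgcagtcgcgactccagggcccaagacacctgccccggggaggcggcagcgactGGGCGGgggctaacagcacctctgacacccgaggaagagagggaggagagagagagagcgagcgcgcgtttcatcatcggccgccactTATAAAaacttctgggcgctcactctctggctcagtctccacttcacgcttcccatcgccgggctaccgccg

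The Ptgs1 window held none of the 6 motifs. The Ptgs2 window held a C/EBP match 140 to 132 bases before the start, an E-box 55 to 50 bases before it and a GC box. Ptges had a GC box, and Slco2a1 had a GC box and a TATA box 72 to 67 bases before its start. Of 33469 rat windows of this length, 2.04% held the C/EBP motif, 5.59% the E-box, 12.9% the TATA box, 30.5% the GC box, 6.34% the AP-1 motif and 1.59% the cAMP response element. No 2 motifs overlapped in the windows shown, and a match describes letters only. The table held 7 of the 10 genes, and no sequence was used for Ptges2, Hpgds and Ptgis.

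The fractions were checked against their labels with cell type markers. Of 12 collecting duct principal cell markers 11 were higher in IMCD. The 1 that did not pass was Aqp2, at 52574 ± 4261 in IMCD and 43299 ± 6559 in nonIMCD (mean ± SD, n = 3 each). Its log2 difference, IMCD minus nonIMCD, was 0.29 ± 0.16 (SE, limma adjusted p = 0.261). The summed intensity of the 12 was 236458 to 254502 on IMCD arrays and 112474 to 146689 on nonIMCD arrays. The nonIMCD fraction thus also held collecting duct RNA. All 11 endothelial markers, 11 of 12 leukocyte markers, 7 of 12 interstitial markers and all 3 thin limb markers were lower in IMCD. Endothelial sums were 15301 to 19189 in IMCD and 65408 to 71380 in nonIMCD, and leukocyte sums 1283 to 1718 in IMCD and 81184 to 94638 in nonIMCD. Interstitial sums were 5197 to 5731 in IMCD and 34700 to 38443 in nonIMCD, and thin limb sums 4571 to 7194 in IMCD and 59569 to 82221 in nonIMCD. Of these markers, Aif1, Itgam, Epha7 and Lum were at or under the highest negative control on all IMCD arrays. That control, a bacterial transcript probe set, read up to 78.4. Lum was at or under it on all nonIMCD arrays too. Few genes led the interstitial and thin limb sums in nonIMCD, with means of 18636 for Vim, 12366 for Sparc and 63194 for Aqp1. Of the interstitial markers 5 did not pass. The mean log2 ratio of 3′ to 5′ signal of control transcripts, a sign of RNA integrity, was 0.67 to 0.72 in IMCD and 1.22 to 1.5 in nonIMCD. The part of these differences in the results that follow was not tested.

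**Figure D1:**
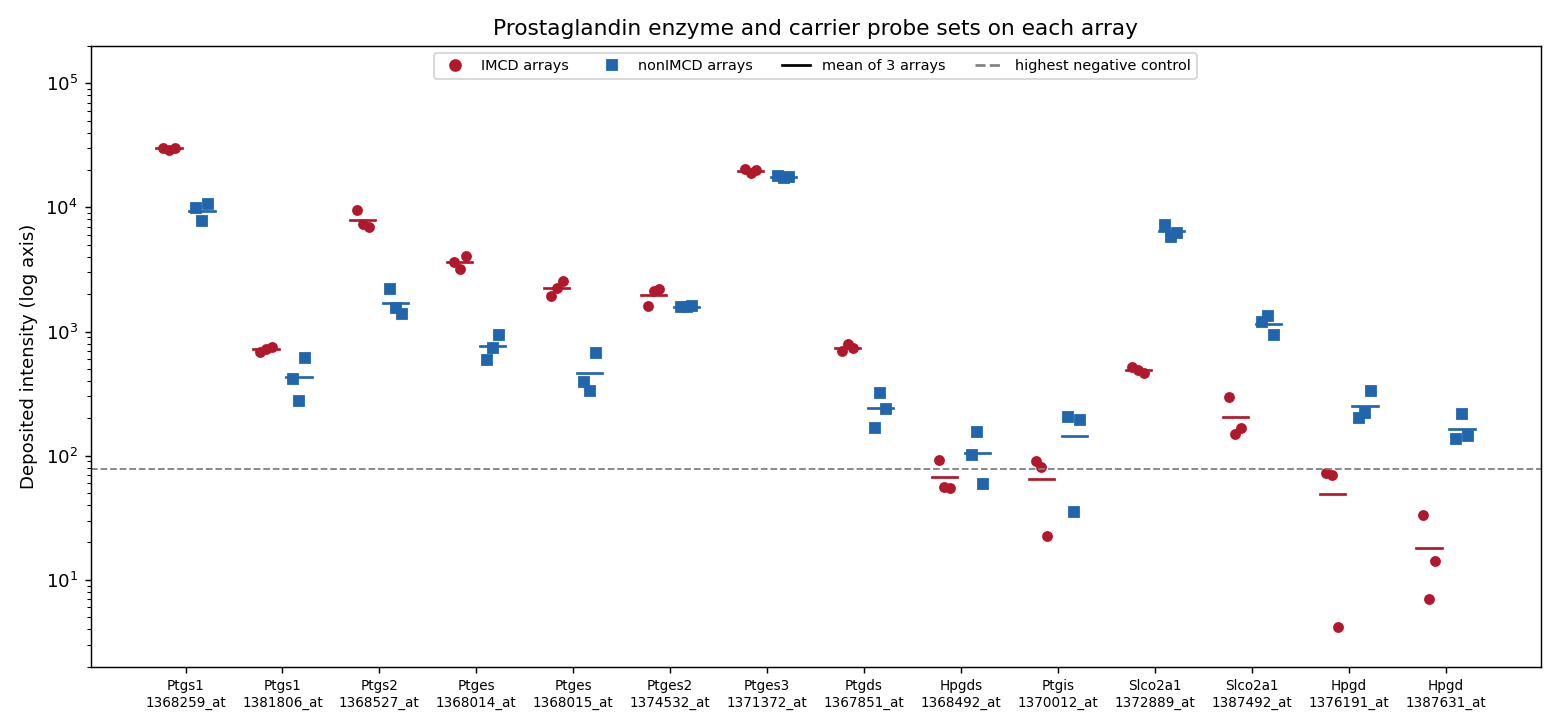
Deposited intensity (log axis) of the 14 probe sets on each array, with IMCD as circles, nonIMCD as squares and bars for means of 3 arrays. The dashed line is the highest negative control (78.4). IMCD lies above nonIMCD for Ptgs1, Ptgs2, Ptges and Ptgds, and below it for Slco2a1 and Hpgd. It also lies slightly above for Ptges2 and Ptges3, which did not pass.

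Ptgs1 encodes cyclooxygenase-1, the form most cells keep without stimulation. Its brighter probe set (1368259_at) read 30375, 29156 and 30350 in IMCD, against 9886, 7822 and 10606 in nonIMCD. The lowest IMCD array was 2.75 times as bright as the highest nonIMCD array, and the SD of the IMCD arrays was 2.33% of their mean. The log2 difference, taken as IMCD minus nonIMCD of log2(intensity + 16), was 1.68 ± 0.16 (SE, limma adjusted p = 0.0015). Ptgs1 also had a dimmer probe set (1381806_at), with 680, 721 and 756 in IMCD and 411, 276.5 and 609 in nonIMCD. These arrays did not overlap either, but nonIMCD replicate 3 lay close to the IMCD values, and the difference of 0.78 ± 0.29 did not pass (limma adjusted p = 0.11, 95% interval 0.08 to 1.48). It passed without nonIMCD replicate 3 (1.05, limma adjusted p = 0.033), with median centring of each array (1.07, adjusted p = 0.0392) and with an intensity trend (0.78, adjusted p = 0.0373).

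Ptgs2 encodes cyclooxygenase-2, the inducible form, which in the renal medulla is best known from interstitial cells. Its probe set read 9582, 7366 and 6939 in IMCD, against 2186, 1545 and 1391 in nonIMCD. Every IMCD array was at least 3.17 times as bright as any nonIMCD array. On the log2 scale the difference was 2.22 ± 0.23 (SE, limma adjusted p = 0.00202), and only 0.445% of all probe sets had a larger positive one. Since Ptgs2 is also an immediate early gene, 12 such genes that respond to tissue dissociation were set beside it. None of the 12 passed (limma, with 2 at an unadjusted p under 0.05), the list median was 0.06, and their summed intensity was 282947 to 330027 in IMCD and 286703 to 331451 in nonIMCD. For Fos the mean intensity was 35073 ± 1863 in IMCD and 40055 ± 3225 in nonIMCD (SD, n = 3 each). Both fractions came from dissociated tissue, and the part of dissociation in the Ptgs2 difference was not tested. For Ptgs2 the 95% interval of the difference was 1.66 to 2.78, and for the brighter Ptgs1 probe set it was 1.29 to 2.06. Whether these differences are unequal was not tested.

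Several enzymes can make PGE2 from PGH2. Ptges, the membrane-bound synthase that is induced together with cyclooxygenase-2, had 3634, 3204 and 4091 in IMCD, against 595, 744 and 945 in nonIMCD (1368014_at). Its other probe set (1368015_at) had 1947, 2257 and 2550 in IMCD, against 390, 329 and 676 in nonIMCD. The fractions did not overlap on either probe set, and the differences were 2.25 ± 0.21 (SE, limma adjusted p = 0.00149) and 2.29 ± 0.29 (adjusted p = 0.00392). The ratio of mean intensities, IMCD over nonIMCD, was 4.79 for the first and 4.84 for the second.

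Ptges2, a second membrane-associated synthase, had 1621, 2110 and 2186 in IMCD and 1568, 1569 and 1604 in nonIMCD. IMCD replicate 1, labelled as 6 weeks old, lay next to the nonIMCD arrays, while the other IMCD arrays were above them. The difference of 0.30 ± 0.16 did not pass (limma adjusted p = 0.227, 95% interval -0.08 to 0.69). Without that array it was 0.44 and still did not pass (limma adjusted p = 0.112). With median centring it was 0.59 and passed (adjusted p = 0.038). Ptges3, the cytosolic synthase that is also the Hsp90 co-chaperone p23, had 20434, 18860 and 20043 in IMCD and 17946, 17363 and 17673 in nonIMCD. The IMCD arrays were all slightly higher, but the difference of 0.16 ± 0.11 did not pass (limma adjusted p = 0.364, 95% interval -0.12 to 0.44). For Ptges3 it was 0.45 with median centring, where it passed (adjusted p = 0.0365), and -0.01 after quantile normalization (adjusted p = 0.979), so its direction turned with the scaling. Median centring moved the median of all probe sets up by 0.29 and quantile normalization by 0.15 from -0.10 on the log2 scale.

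**Figure D2:**
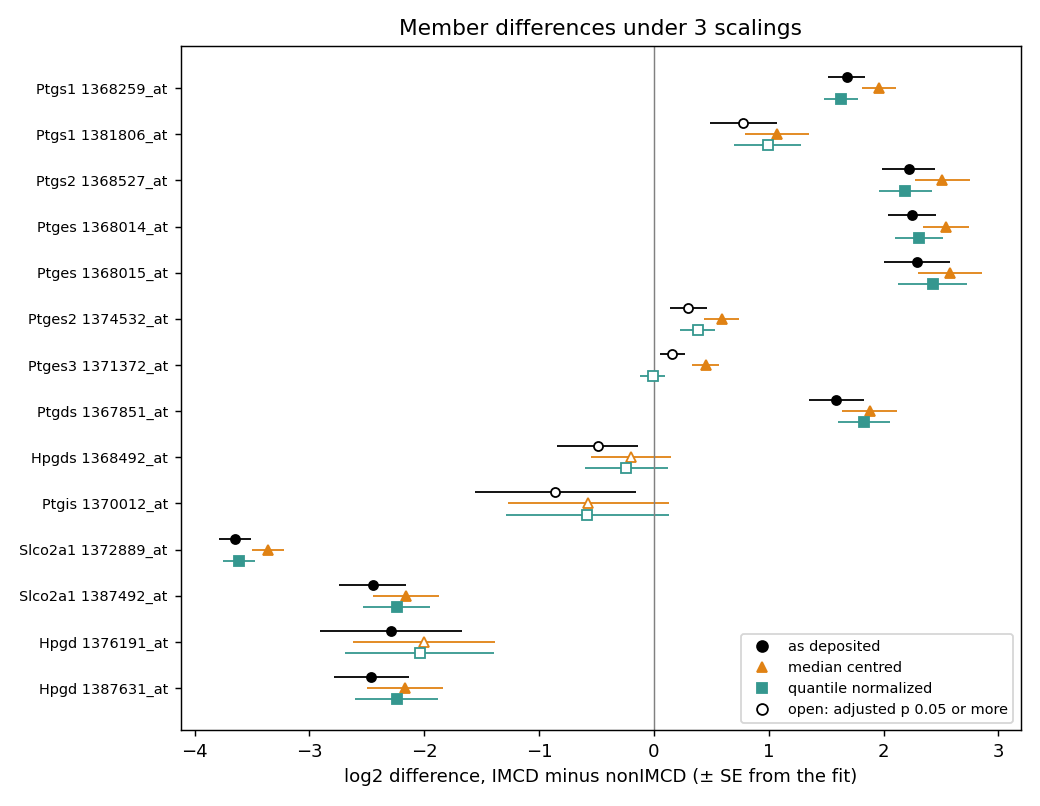
Log2 difference (IMCD minus nonIMCD, ± SE) of each probe set as deposited, after median centring of each array and after quantile normalization. Filled symbols passed at an adjusted p under 0.05. Ptges2, Ptges3 and the dimmer Ptgs1 probe set passed only with median centring among these 3, and Ptges3 was at -0.01 after quantile normalization.

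Among the synthases of other prostaglandins, Ptgds was the one that passed. It encodes the lipocalin-type PGD2 synthase, a secreted protein. Ptgds had 693, 791 and 736 in IMCD, against 167, 322 and 238.5 in nonIMCD, with no overlap. The mean intensity was 3.05 times that of nonIMCD, a log2 difference of 1.59 ± 0.24 (SE, limma adjusted p = 0.00758). Hpgds, the hematopoietic PGD2 synthase of mast cells and other blood-derived cells, had 92.4, 56.1 and 54.5 in IMCD and 102, 155 and 59.0 in nonIMCD. These arrays overlapped, and 3 of the 6 did not exceed the highest negative control. Its difference was -0.49 ± 0.35 (limma adjusted p = 0.377, 95% interval -1.34 to 0.37). Of 8 mast cell markers none passed (limma, 0 also at an unadjusted p under 0.05), with sums of 555 to 797 in IMCD and 506 to 781 in nonIMCD, and Tpsab1, Cma1 and Fcer1a were at or under the highest negative control on all 6 arrays.

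Ptgis, the prostacyclin synthase of vessel walls, had 91.2, 81.2 and 22.4 in IMCD and 206, 34.9 and 195 in nonIMCD. The fractions overlapped through nonIMCD replicate 2, the dimmest of its fraction. The difference of -0.86 ± 0.70 did not pass (limma adjusted p = 0.443), and its 95% interval of -2.59 to 0.87 was the widest of the 14. Leaving out 1 array at a time moved it between -1.55 and -0.39.

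The carrier Slco2a1 had the largest difference of the 14 probe sets. Its brighter probe set (1372889_at) read 522, 491.5 and 468 in IMCD, against 7186, 5763 and 6261 in nonIMCD. Every nonIMCD array was at least 11.05 times as bright as any IMCD array. The log2 difference was -3.65 ± 0.14 (SE, limma adjusted p = 0.000204), and 0.715% of all probe sets had a larger negative one. Slco2a1 was lower on its dimmer probe set too (1387492_at), with 296.5, 150.5 and 168 in IMCD, against 1192, 1344 and 935 in nonIMCD. That difference was -2.45 ± 0.29 (limma adjusted p = 0.00305). The 95% intervals of both probe sets, -3.99 to -3.31 and -3.15 to -1.75, did not overlap, so they gave the same direction with different sizes.

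Hpgd, which inactivates prostaglandins by oxidizing their 15-hydroxyl group, was dim in both fractions and dimmer in IMCD. On 1 probe set (1376191_at) it had 72.9, 70.5 and 4.14 in IMCD, against 202, 222 and 331 in nonIMCD. On the other (1387631_at) it had 33.1, 7.01 and 14.1 in IMCD, against 136, 217 and 143 in nonIMCD. On both, all 3 IMCD arrays were below the highest negative control and all nonIMCD arrays were above it. Against that limit nonIMCD was at least 3.136-fold brighter on the first probe set and at least 2.06-fold on the second. The fitted differences were -2.29 ± 0.62 (SE, limma adjusted p = 0.0486) and -2.46 ± 0.33 (adjusted p = 0.00486), both depending on the added 16. The first lost its call under 9 of 12 other settings, and the second kept it under all 12. For the first the difference was -1.58 without IMCD replicate 3 (adjusted p = 0.0187), the array at 4.14, and -2.65 without IMCD replicate 1 (adjusted p = 0.0649).

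Counted by probe set, 5 of 14 were higher in IMCD and 4 were lower, together 64.3%. Among all probe sets 8.58% were higher and 13.4% lower, together 22.0%. The arrays of the fractions did not overlap for 12 of the 14 (85.7%), beside 42.2% of all probe sets. Both probe sets of Ptges, Slco2a1 and Hpgd passed in the same direction, while for Ptgs1 only the brighter one passed.

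**Figure D3:**
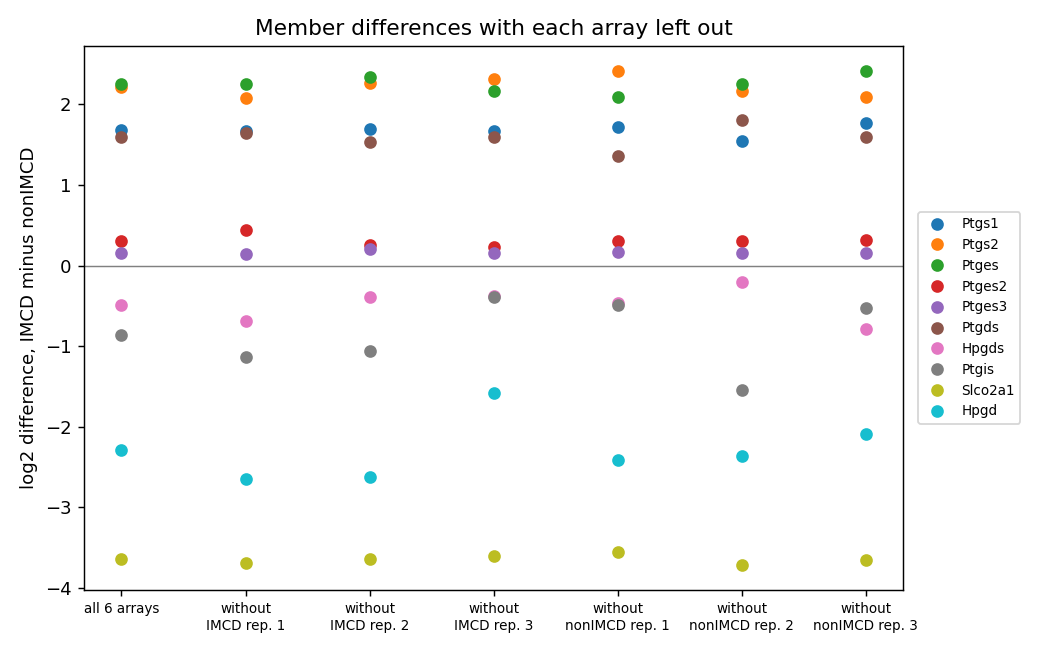
Log2 difference (IMCD minus nonIMCD) of the 10 genes, by brightest probe set, from all 6 arrays and with each array left out. Ptgs1, Ptgs2, Ptges, Ptgds and Slco2a1 moved little and passed in every case, while Ptgis ranged from -1.55 to -0.39 and Hpgd from -2.65 to -1.58.

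The array profiles were also searched for genes most like 3 members, by the correlation of log2 values over the 6 arrays among 10968 genes with a mean log2 value of 7 or more. For Ptgs1 these were Tnfsf13 (r = 0.9995), Acrbp (0.9995) and Btc (0.9993). For Ptgs2 they were Mybpc2 (0.9986), Sowahc (0.9973) and Gnb5 (0.9973), and for Ptges they were Cfdp1 (0.9991), Hcfc1r1 (0.9986) and Idh3b (0.9985). Since 1020, 750 and 905 genes had r above 0.95 with Ptgs1, Ptgs2 and Ptges, such values mostly follow the split of the arrays into fractions.

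Upstream of the cyclooxygenases, 12 phospholipase A2 genes were measured. None was higher in IMCD, 3 were lower and 9 did not pass, with a median of -0.06. Of all genes 10.0% were higher and 15.7% lower, together 25.8%, with a median of -0.09. The phospholipases thus passed about as often as genes in general. Pla2g4a, the cytosolic enzyme that feeds the cyclooxygenases, averaged 3632 ± 369.7 in IMCD and 3672 ± 89.4 in nonIMCD (SD, n = 3 each), a difference of -0.02 ± 0.13 (SE, limma adjusted p = 0.931). It was chosen for mention after its value was seen. Plaat3, a phospholipase known from adipocytes, had 174, 239 and 250.1 in IMCD, against 1845, 1576 and 1346 in nonIMCD (-2.76 ± 0.20, limma adjusted p = 0.000698). The secreted Pla2g2a had 9.39, 6.88 and 9.60 in IMCD, against 172, 402 and 519 in nonIMCD, at least 4.206-fold brighter there (limma adjusted p = 0.00208). Pla2g1b passed (-1.25, limma adjusted p = 0.0425) at 11.7 to 43.5 in IMCD and 63.2 to 74.5 in nonIMCD, all under the highest negative control. It lost that call without IMCD replicate 2, IMCD replicate 3 or any 1 nonIMCD array (limma adjusted p = 0.0886 to 0.116). The call was also lost with median centring, quantile normalization, pseudocount 1, an intensity trend and the replicate block (limma adjusted p = 0.0595 to 0.0915).

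Of 14 other prostanoid enzymes and carriers 3 were higher in IMCD, 4 lower and 7 did not pass (median -0.24), where 25.8% of all genes passed. Ptgr1, which reduces the 15-keto products that Hpgd makes, had 23224, 21340 and 24740 in IMCD, against 5839, 4216 and 5722 in nonIMCD. That is a ratio of 4.39 and a log2 difference of 2.14 ± 0.17 (SE, limma adjusted p = 0.000982), opposite in sign to that of Hpgd. The glutathione transferase Gstm2 had 14025, 12482 and 13141 in IMCD, against 3480, 3733 and 3773 in nonIMCD (1.85 ± 0.12, limma adjusted p = 0.000531). Tbxas1, the thromboxane synthase of platelets and macrophages, had 130, 104 and 131 in IMCD, against 1143, 1463 and 953 in nonIMCD (-3.11 ± 0.20, limma adjusted p = 0.000526). Slco2b1, an organic anion carrier of the same family as Slco2a1, had 129, 139 and 104 in IMCD, against 1113, 1276 and 981 in nonIMCD (-3.02 ± 0.17, limma adjusted p = 0.000395), and its other probe set gave -2.06 (adjusted p = 0.0245). Of 4 platelet markers 1 passed, Pf4 (-3.91, limma adjusted p = 0.000264), with sums of 1210 to 1529 in IMCD and 4016 to 5476 in nonIMCD. Of the leukocyte markers 11 of 12 were lower too, and the part of these cells in Tbxas1 was not tested.

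**Figure D4:**
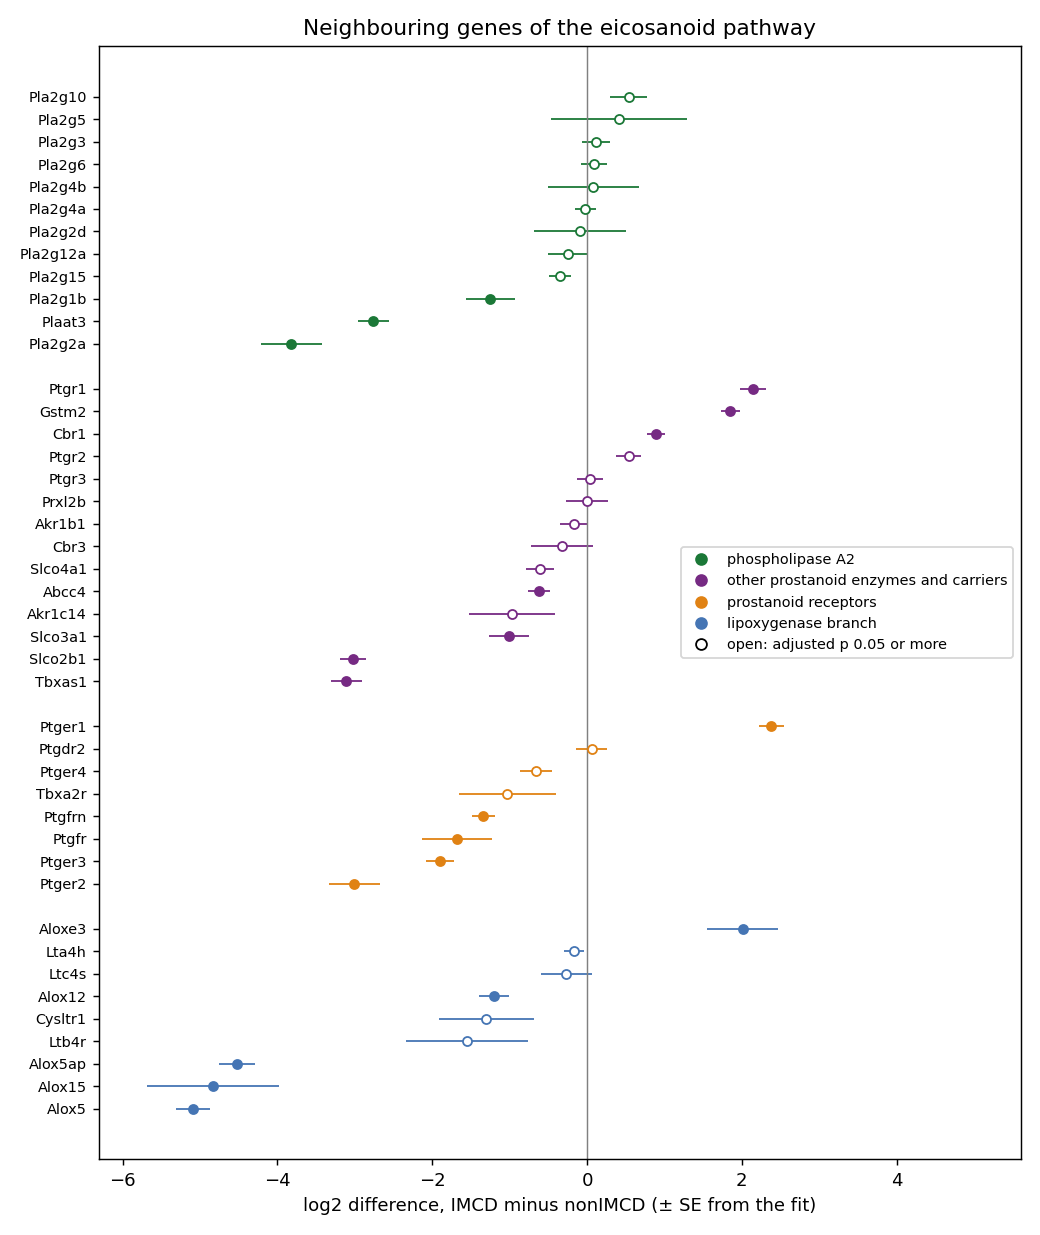
Log2 difference (IMCD minus nonIMCD, ± SE) of 43 neighbouring genes in 4 lists, each by its brightest probe set, filled where the adjusted p was under 0.05. Ptger1, Ptgr1, Aloxe3, Gstm2 and Cbr1 lie to the right, and Alox5, Alox15 and Alox5ap lie farthest to the left.

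Downstream, 8 genes of a prostanoid receptor list were measured, of which 1 was higher in IMCD, 4 were lower and 3 did not pass (median -1.18). Of all genes 25.8% passed. The 4 lower ones include Ptgfrn, a regulator of the receptor Ptgfr and not a receptor itself (-1.34 ± 0.15, limma adjusted p = 0.00273). Ptger1, a PGE2 receptor coupled to calcium, had 4886, 5556 and 4836 in IMCD, against 856, 896.5 and 1162 in nonIMCD. The log2 difference was 2.38 ± 0.16 (SE, limma adjusted p = 0.000621) and the ratio 5.24, but a dim second probe set gave 0.14 (adjusted p = 0.892). Ptger2, a PGE2 receptor that raises cAMP, had 39.0, 23.6 and 6.83 in IMCD, against 273, 319 and 252 in nonIMCD, at least 3.57-fold brighter there (limma adjusted p = 0.00259). Ptger3, which lowers cAMP, differed by -1.90 ± 0.18 (limma adjusted p = 0.00164), and by -1.10 on its other probe set (adjusted p = 0.0281). Ptgfr had 19.3, 17.8 and 12.96 in IMCD, against 104.5, 36.6 and 164 in nonIMCD, so all IMCD arrays and 1 nonIMCD array were under the highest negative control. Against that limit nonIMCD was at least 1.09-fold brighter (limma adjusted p = 0.0475), and a dimmer probe set gave 0.16 (adjusted p = 0.742). The Ptgfr call was lost without any 1 array other than nonIMCD replicate 2 (limma adjusted p = 0.0872 to 0.131), with median centring (0.0709), after quantile normalization (0.0703) and with the replicate block (0.0911).

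Arachidonic acid can also go to lipoxygenases. Of 9 genes of that branch 1 was higher in IMCD, 4 were lower and 4 did not pass (median -1.30). The share that passed among all genes was 25.8%. Alox5, which starts leukotriene synthesis, had 23.1, 31.9 and 12.7 in IMCD, against 1230, 1417 and 1176 in nonIMCD, at least 16.2-fold brighter there (limma adjusted p = 0.000228). Its activating protein Alox5ap had 105.5, 52.9 and 87.1 in IMCD, against 2218, 2014 and 2300 in nonIMCD (-4.52 ± 0.23, limma adjusted p = 0.000333). Alox15 had 17.9, 74.2 and 77.4 in IMCD, against 528, 2857 and 4164 in nonIMCD, a wide spread in the nonIMCD fraction and at least 23.5-fold brighter there (limma adjusted p = 0.0128). These are genes known from leukocytes, whose markers were lower in IMCD in 11 of 12 cases, and the part of those cells was not tested. Aloxe3, a lipoxygenase known from epidermis, was the higher one, with 239, 156 and 264 in IMCD and 85.9, 15.1 and 43.7 in nonIMCD (2.01 ± 0.46, limma adjusted p = 0.0294). Aloxe3 lost its call without any 1 IMCD array (limma adjusted p = 0.0524 to 0.0905) or without nonIMCD replicate 3 (adjusted p = 0.0739), and with pseudocount 1 (adjusted p = 0.0542).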

How the data were processed

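RNA of 2 fractions was measured on 6 arrays (about 3 µg total RNA each, per the labels' protocols). The deposited file gives linear intensities, a single one for each probe set on each array. The authors had scaled these intensities: with 2% trimmed at each end, the mean was 1000 on every array, so differences are relative to average brightness. The software behind them is not named in the sources used here. Every column could be assigned to a sample.

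Of 31099 probe sets, 57 were controls and stayed out of the tests. The platform annotation gave 1 symbol for 20826 probe sets, several for 436 and none for 9780. Identifiers led to RefSeq GRCr8 for 20758 single symbols, of which 0 changed. The brightest probe set, by mean log2 value, stood for a gene. No probe set with several symbols held a member.

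The test on log2(intensity + 16) was limma's (version 3.58.1, R 4.3.3; lmFit and eBayes, two-sided, no filter and no covariate), with Benjamini-Hochberg adjustment over all 31042 probe sets. The fit was tested on simulated data. This scale understates differences of dim probe sets, and array number limits precision. Detection calls were not used here, and the highest of 3 bacterial tryptophan gene probe sets (78.4) marked the dim end. A bound ("at least") is the nonIMCD mean log2 intensity against the IMCD mean with arrays raised to 78.4. Array medians were 269 to 272 in IMCD and 329 to 340 in nonIMCD. Log2 values correlated at 0.956 to 0.966 within and 0.901 to 0.91 between fractions.

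The members, the gene lists, the markers, the motifs and the rule for naming genes were chosen with earlier results of these data known. Named genes were all members, up to 4 genes past the threshold with the largest differences in each pathway list, and the 3 most correlated genes of Ptgs1, Ptgs2 and Ptges. Outside this rule, Pla2g4a, Fos, Pf4, Aqp2, Vim, Sparc, Aqp1 and Ptgfrn were chosen after their values were seen. Promoters came from RefSeq (GRCr8). Alternatives were other scalings and pseudocounts, a filter on dim probe sets, an intensity trend, a replicate block and leaving out each array.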

Additional observations from a re-analysis of the deposited data

How the results depend on the processing

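The brighter Ptgs1 probe set, Ptgs2, Ptgds and both probe sets of Ptges and Slco2a1 kept their direction and their call under all 13 alternatives, as did the second Hpgd probe set under the 12 it could be tested in. Over those settings Ptgs1 ranged from 1.55 to 1.96, Ptgs2 from 2.08 to 2.51, Ptgds from 1.36 to 1.88 and the brighter Slco2a1 from -3.72 to -3.36. Higher probe sets among the members numbered 8 with median centring, against 5 as deposited, and lower ones 2 with dim probe sets left out, against 4. Lower member genes numbered 1 in place of 2 with median centring, quantile normalization, pseudocount 1, dim probe sets left out and the replicate block, and 1 to 2 with single arrays left out (1 without any array but IMCD replicate 3). The gene lost was Hpgd, which the filter on dim probe sets removed. Ptges3 was -0.01 after quantile normalization, and the cause was not tested. Among phospholipases, 1 was lower with dim probe sets left out, against 3. Of the other prostanoid enzymes and carriers, 2 were lower with median centring or the replicate block, against 4, and 2 to 3 with single arrays left out (2 without any IMCD array or nonIMCD replicate 1). No lipoxygenase branch gene was higher with pseudocount 1 or dim probe sets left out, and 0 to 1 was with single arrays left out (0 without any IMCD array or nonIMCD replicate 3), which concerns Aloxe3.

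Of all calls, 39.0% were higher as deposited, 67.0% with median centring and 52.1% after quantile normalization. The study names 3 pairs of fractions without saying which arrays form one, and the age labels of the arrays numbered 1 differ. Deviations from the fraction means correlated at 0.0891, 0.132 and 0.186 between same-numbered arrays, and each array correlated best with its own number, a hint from the data and not from the design. With the replicate block, 5 member probe sets were higher and 3 lower, and Hpgd (1376191_at) had -2.29 with adjusted p = 0.113. Brightness near the negative controls limits Hpgd, Hpgds and Ptgis.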
